A study of Homo sapiens with 9 samples.

Results

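Interferon-stimulated genes are the genes that a cell switches on when it senses foreign RNA or is exposed to interferon. They were measured here in Hec50, an established cell line from human endometrial cancer, with 9 Affymetrix arrays. The group comprised 55 named genes: sensors and binders of double-stranded RNA, the interferon receptor, interferon regulatory factors and the antiviral proteins that they induce. It held every probe set whose only gene symbol was one of these 55, which gave 105 of the 54675 probe sets of the array and covered 55 of 55 genes among the 19775 measured. A probe set is a group of short probes against 1 transcript; 28 genes had 1 probe set and 27 had more, up to 10 for PML.

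The cells fell into 3 groups of 3 arrays. The first was mock transfected, with no RNA, dose or time named for it in the labels. The second received a scrambled negative control RNA and the third a synthetic mimic of miR-200c, each at 60 nM for 48 h. All 9 arrays came from the same line grown in the same serum-containing medium, and the question of the study was what restoring this microRNA does to gene expression in an aggressive cancer line. Nothing in the labels ties the replicates to separate cultures, and the p-values below therefore reflect the spread between these 9 arrays, which may be technical.

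Double-stranded RNA is bound in endosomes by TLR3 and in the cytosol by the helicases RIGI and IFIH1, which signal through the adaptor MAVS to IRF3 and IRF7 and so to the interferon genes. Secreted interferon binds the receptor chains IFNAR1 and IFNAR2 and activates a transcription factor complex whose DNA-binding subunit is IRF9. That complex binds the interferon-stimulated response element (ISRE) in promoters of the antiviral genes, while homodimers of STAT proteins bind the gamma-activated site (GAS). Transfected RNA of some kinds is known to set this pathway off, which is why both a mock and a scrambled control bear on these genes.

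The RNA given to the third group mimics the following mature microRNA, printed with its seed (bases 2 to 8, which pair with target mRNA) in capitals. Its gene lies at chr12:6963742-6963764 on the plus strand (RefSeq, GRCh38.p14). The sequences of the mimic itself and of the scrambled control are not given in the labels.
hsa-miR-200c-3p: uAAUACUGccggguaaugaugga

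The promoters of 5 members are shown because they carry letters of the ISRE, the GAS or both, and because these 5 genes behaved differently. EPSTI1, IFITM1, IRF9 and DTX3L had the mimic arrays above the scrambled arrays, and IFIT1 did not. The 5 were picked with these values known, and a link between promoter letters and change was not tested on them. Each window runs from 250 bases before to 50 after the gene start in RefSeq (GRCh38.p14), 5′ to 3′ along the gene. Capitals mark the ISRE core, read here as GAAA, any 2 bases and GAAA again, and the GAS, TTCNNNGAA, searched on both strands, with overlapping matches run together. The windows are EPSTI1 at chr13:42992192-42992491 (minus strand), IFITM1 at chr11:313790-314089, IRF9 at chr14:24161015-24161314, DTX3L at chr3:122564088-122564387 and IFIT1 at chr10:89392373-89392672 (all plus strand).
EPSTI1: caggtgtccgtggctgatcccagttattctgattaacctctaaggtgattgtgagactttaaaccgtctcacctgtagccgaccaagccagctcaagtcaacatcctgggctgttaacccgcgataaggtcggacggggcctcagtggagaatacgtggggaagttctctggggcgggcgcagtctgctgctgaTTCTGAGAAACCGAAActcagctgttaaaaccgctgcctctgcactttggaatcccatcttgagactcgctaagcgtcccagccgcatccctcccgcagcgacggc
IFITM1: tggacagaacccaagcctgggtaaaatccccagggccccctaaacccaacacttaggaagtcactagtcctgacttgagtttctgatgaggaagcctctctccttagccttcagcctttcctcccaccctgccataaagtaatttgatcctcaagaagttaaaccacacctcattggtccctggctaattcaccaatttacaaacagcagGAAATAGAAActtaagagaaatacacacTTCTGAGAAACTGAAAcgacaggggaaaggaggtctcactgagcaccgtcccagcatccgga
IRF9: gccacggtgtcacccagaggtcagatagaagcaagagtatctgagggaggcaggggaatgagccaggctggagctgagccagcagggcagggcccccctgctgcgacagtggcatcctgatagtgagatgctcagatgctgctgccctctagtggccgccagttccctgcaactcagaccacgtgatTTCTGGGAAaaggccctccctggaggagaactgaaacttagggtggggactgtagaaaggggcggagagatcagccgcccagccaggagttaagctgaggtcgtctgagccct
DTX3L: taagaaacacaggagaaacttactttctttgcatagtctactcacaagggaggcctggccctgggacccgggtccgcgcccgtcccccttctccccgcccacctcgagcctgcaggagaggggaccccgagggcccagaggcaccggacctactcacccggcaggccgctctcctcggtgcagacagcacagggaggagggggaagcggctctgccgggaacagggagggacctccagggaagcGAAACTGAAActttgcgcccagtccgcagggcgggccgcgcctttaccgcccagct
IFIT1: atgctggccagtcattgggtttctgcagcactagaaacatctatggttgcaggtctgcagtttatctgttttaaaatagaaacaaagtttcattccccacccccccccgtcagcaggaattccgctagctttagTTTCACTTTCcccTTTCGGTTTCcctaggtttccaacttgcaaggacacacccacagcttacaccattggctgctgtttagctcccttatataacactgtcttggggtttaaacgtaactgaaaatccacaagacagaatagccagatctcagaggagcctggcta

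In EPSTI1 the GAS began 56 bases before the start and ran into an ISRE core that began 50 bases before it. IFITM1 held ISRE cores 40 and 6 bases before the start, and a GAS at 12 that ran into the second of them. IRF9 held a GAS 63 bases before the start and no match to the ISRE letters, and DTX3L an ISRE core 6 bases before the start. IFIT1 held cores at 116 and 103 bases, on the opposite strand. RefSeq windows were matched for 44 of the 55 members; DHX58, IFNAR2, IRF3, IRF7, OAS2, OASL, IFIT2, MX2, USP18, TRIM22 and PML were not matched in the table used here. The ISRE core stood in 28 of these 44 genes, against 3.57% of all 35116 windows and 4.38% of 27305 genes. The GAS stood in 14 of 44, against 7.66% of windows and 9.38% of genes. A match describes the letters in this window and not a binding site.

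The deposited values are on a log scale, taken as log2 from the size of the values, and are centred, so that every probe set has a median of 0 across arrays. They therefore show differences between arrays and no absolute level. A level class was recovered from rounding, which put 32 members at 8 or more on the log2 scale, 22 from 4 to 8 and 1 (TRIM22) below 4. Signal over background is not known, so the class is no test of detection. Of the 105 probe sets, 42 (40%) held more than 1 value of exactly 0, against 48.89% of all probe sets.

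The keratins KRT8 and KRT18, the Müllerian lineage factor PAX8 and the mesenchymal filament VIM stood at 8 or more in this line, with 6 of 14 epithelial and endometrial markers in that class. Of these 14, 5 rose over scrambled control (KRT8 by 0.51, KRT18 by 0.50, CDH1 by 3.26, MUC1 by 0.61 and FOXA2 by 0.29) and 3 fell (PAX8 -0.21, VIM -0.23 and WT1 -0.44). Against mock 4 rose and 4 fell, and between the controls 0 rose (2 at an unadjusted p under 0.05, limma) and 1, PAX8, fell. The mean of the list ran from 0.0182 to 0.0368 over the mock arrays and from -0.0622 to 0.015 over the scrambled arrays. Over the mimic arrays it ran from 0.20 to 0.34, with CDH1 and its change of 3.26 included. The median change of the list over scrambled control was -0.0353, with 5 genes above 0 and 9 below. The part of this list in the members' results was not tested. Of 13 leukocyte markers 2 stood there (CSF1R and ITGAM), of 6 plasmacytoid dendritic cell markers 1 (IL3RA) and of 8 endothelial markers 1 (TEK). Against the scrambled control 0 of these 27 markers of other cells rose in limma's test, with 0 also at an unadjusted p under 0.05, and LAPTM5 fell (-0.22, adjusted p = 0.00945). Against mock 2 of them rose (CD3E and ITGAM) and LAPTM5 fell, and between the controls CD3E rose. The mean of the leukocyte list ran from -0.04 to -0.01 over the mock arrays, from -0.0013 to 0.07 over the scrambled arrays and from -0.08 to 0.07 over the mimic arrays, and its part in the results was not tested.

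The median member stood higher in the mimic cells than in the cells given the scrambled RNA, and lower in the scrambled cells than in the mock cells. The median over the 55 members was 0.00 on each mock array. It was -0.05, -0.04 and -0.08 on the scrambled arrays, and 0.14, -0.0037 and 0.07 on the mimic arrays. All 3 scrambled arrays lay below the 3 mock arrays, and the mimic arrays overlapped the mock arrays through mimic replicate 2. Over all genes the median of each array was 0.00. Mimic replicate 1 was the highest and mimic replicate 2 the lowest mimic array in 37 of the 55 members each. The share of all genes with this order was not counted. The quartiles of all genes also lay lower on mimic replicate 2 (-0.09 and 0.05) than on mimic replicate 1 (-0.05 and 0.07).

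**Figure D1:**
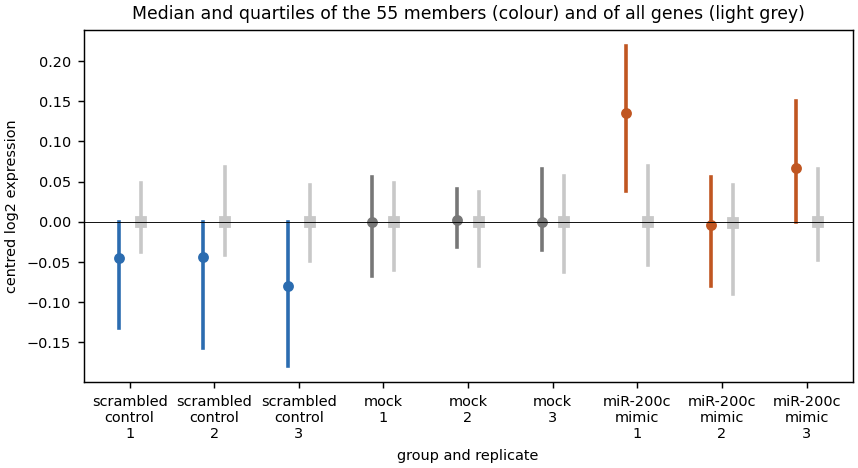
Median (point) and quartiles (bar) of centred log2 expression on each of the 9 arrays, for the 55 members in colour and for all 19775 genes in light grey. The members' median is -0.08 to -0.04 on the scrambled arrays and 0.14, -0.0037 and 0.07 on mimic replicates 1 to 3, while that of all genes stays at 0.00.

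Between mimic and scrambled control, 19 of 55 members rose (34.5%) and 1, IFIT2, fell, at an adjusted p under 0.05 over all genes (limma); of all genes tested 7.55% rose, 6.95% fell and 14.5% changed. The members were chosen with earlier results of these data known. The gap between their share and that of all genes is therefore no independent test, here and in the comparisons below. The median change was 0.13 against -0.01 over all genes, and 44 members lay above 0, as did 9104 of all 19775 genes. All 3 mimic arrays lay above all 3 scrambled arrays in 25 members and below them in 2, against 14.5% and 15.2% of all genes. In bulk RNA, a change in every cell and a change in some cells cannot be told apart. In the fit on single probe sets, 22 of 105 rose and 2 fell, where 5.63% of all probe sets rose, 5.25% fell and 10.9% changed. Leaving out 1 array in turn gave 13 to 21 members higher.

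Between mimic and mock, 7 of 55 members rose (12.7%) and 0 fell (2 at an unadjusted p under 0.05, limma), where 8.32% of all genes rose, 10.2% fell and 18.5% changed. The 7 were IFIH1, IFNAR2, IRF9, UBE2L6, HERC5, DTX3L and EPSTI1. The median change was 0.09 against 0.01 over all genes. The arrays of the groups lay apart in 14 members with the mimic higher and in 4 with it lower, against 16.9% and 17.6% of all genes. By single probe sets 12 of 105 rose and 2 fell, where 6.25% of all rose, 8.45% fell and 14.7% changed. Without mock replicate 1, mock replicate 2 or mimic replicate 1 the count of higher members was 4 in each case, and without mimic replicate 2 it was 11.

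Between scrambled control and mock, 0 members rose and 9 fell (16.4%), where 2.65% of all genes rose, 5.15% fell and 7.8% changed. The 9 were IRF3, IRF9, OASL, IFIT3, RSAD2, ISG20, IFITM1, HERC5 and DTX3L. The median change was -0.06 against 0.02 over all genes, and the scrambled arrays all lay below the mock arrays in 26 members and above them in 6 (15.2% and 14.9% of all genes). At an unadjusted p under 0.05 (limma) 5 members rose, and by single probe sets 1 rose (TLR3) and 11 fell, where 1.82% of all rose, 3.92% fell and 5.74% changed. Each of the mock arrays, when left out, took the count of lower members to 3. It was 5, 4 and 6 without scrambled replicates 1, 2 and 3.

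The control probes for the transcript ends of ACTB moved with this comparison, and those of GAPDH overlapped between the groups. The signal of the 3′ probe sets of ACTB minus that of its 5′ probe sets, centred in the same way, was -0.18 ± 0.03 in mock, 0.10 ± 0.04 in scrambled and 0.02 ± 0.08 in mimic cells (SD, n = 3). For GAPDH it was 0.03 ± 0.04, 0.01 ± 0.02 and -0.02 ± 0.03. The ACTB difference separated mock from both other groups, and its part in the results against mock was not tested.

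The comparisons share arrays: the scrambled arrays stand in the first and the third, the mimic arrays in the first and the second, and the mock arrays in the second and the third. Of the 19 members higher than scrambled control, 6 were also higher than mock (IFIH1, IFNAR2, IRF9, HERC5, DTX3L and EPSTI1). In 8 the scrambled control was also lower than mock (IRF3, IRF9, OASL, IFIT3, ISG20, IFITM1, HERC5 and DTX3L), and IRF9, HERC5 and DTX3L were called in all 3 comparisons. A further 8 passed only the first test: MAVS, OAS1, CMPK2, BST2, ISG15, IFI6, IFI35 and PSMB8. The group means ran in the order scrambled, mock, mimic in 23 of 55 members, scrambled was lowest in 36 and mimic was highest in 31. How often these orders occur over all genes was not counted, so these 3 counts have no background beside them.

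**Figure D2:**
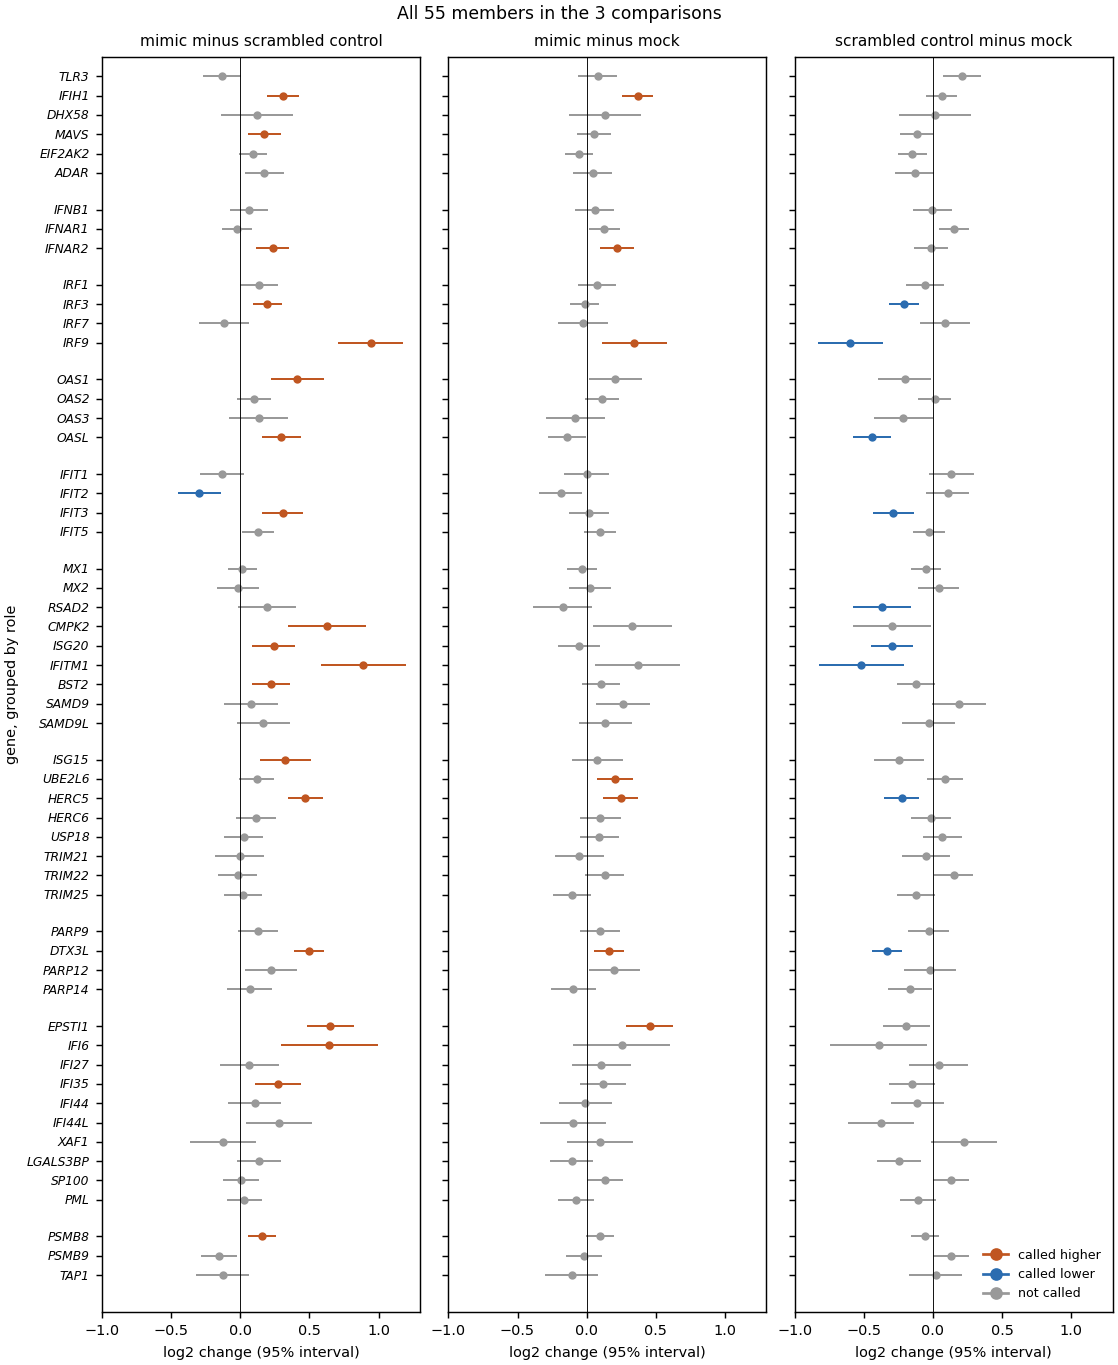
Log2 change of each of the 55 members, grouped by role, in the 3 comparisons; points are limma estimates, bars are 95% intervals, and colour marks an adjusted p under 0.05. Called members are 19 higher and 1 lower for mimic minus scrambled control, 7 higher for mimic minus mock and 9 lower for scrambled control minus mock.

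Among the sensors, IFIH1, the helicase that detects long double-stranded RNA in the cytosol, was higher in the mimic cells than in either control. Its array values were -0.04, -0.10 and -0.06 on the mock arrays, 0.00, -0.01 and -0.01 on the scrambled arrays and 0.22, 0.36 and 0.33 on the mimic arrays. The mimic arrays lay above all 6 others, and both control groups lay close together. The change was 0.31 (SE 0.05, adjusted p = 0.00149) against scrambled control and 0.37 (SE 0.05, adjusted p = 0.000437) against mock, and the scrambled control differed from mock by 0.06 (SE 0.05, adjusted p = 0.474). The probe set 219209_at gave 0.30 and 0.44 against the 2 controls and 1555464_at gave 0.31 and 0.30, all 4 called, while 216020_at, in the class below 4, gave 0.02 and 0.19, neither called.

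TLR3, the endosomal receptor for double-stranded RNA, was not called at the gene level: -0.13 (SE 0.06, adjusted p = 0.189) against scrambled control. Its array values were -0.12, -0.09 and 0.00 on the mock arrays, 0.15, 0.07 and 0.20 on the scrambled arrays and -0.05, -0.04 and 0.11 on the mimic arrays. The scrambled arrays lay above the mock arrays, in the opposite direction to the group as a whole (0.21, SE 0.06, adjusted p = 0.0566). The difference stood in 1 probe set, 239587_at, in which the scrambled arrays stood at 0.31, 0.24 and 0.34 and all other arrays at 0.16 or less. There the mimic was lower than scrambled control (-0.33, SE 0.08, adjusted p = 0.0295) and the scrambled control higher than mock (0.35, SE 0.08, adjusted p = 0.0367). A further TLR3 probe set of the same level class, 206271_at, gave 0.06 and 0.07, neither called.

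The adaptor MAVS, which passes the signal of the cytosolic helicases on at the mitochondrial membrane, stood at 0.05, 0.03 and 0.00 on the mock arrays, -0.07, -0.16 and -0.05 on the scrambled arrays and 0.15, 0.00 and 0.09 on the mimic arrays. Mimic arrays lay above scrambled arrays by a small step (0.17, SE 0.05, adjusted p = 0.0472), with no call against mock (0.05, SE 0.05, adjusted p = 0.531). No single probe set of MAVS was called in this comparison. The call was lost without scrambled replicates 1, 2 or 3 (adjusted p = 0.0856, 0.158 and 0.0605) or mimic replicates 1 or 3 (0.136 and 0.117), and with the mean of all its probe sets (0.0863).

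DHX58, a helicase that modulates the other cytosolic sensors, stood at 0.03, 0.01 and -0.30 on the mock arrays, -0.02, 0.00 and -0.19 on the scrambled arrays and -0.15, 0.29 and 0.00 on the mimic arrays, with all groups overlapping and a difference of 0.12 (SE 0.12, adjusted p = 0.577). EIF2AK2, the kinase that stops translation when it binds double-stranded RNA, and ADAR, which edits adenosines in it, differed by 0.09 and 0.17 against scrambled control, neither called. In EIF2AK2 the probe set 213294_at was lower than mock in the scrambled cells (-0.26, SE 0.05, adjusted p = 0.0223) and in the mimic cells (-0.22, SE 0.05, adjusted p = 0.0173), and 204211_x_at of the same gene gave -0.04 and 0.11, neither called.

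**Figure D3:**
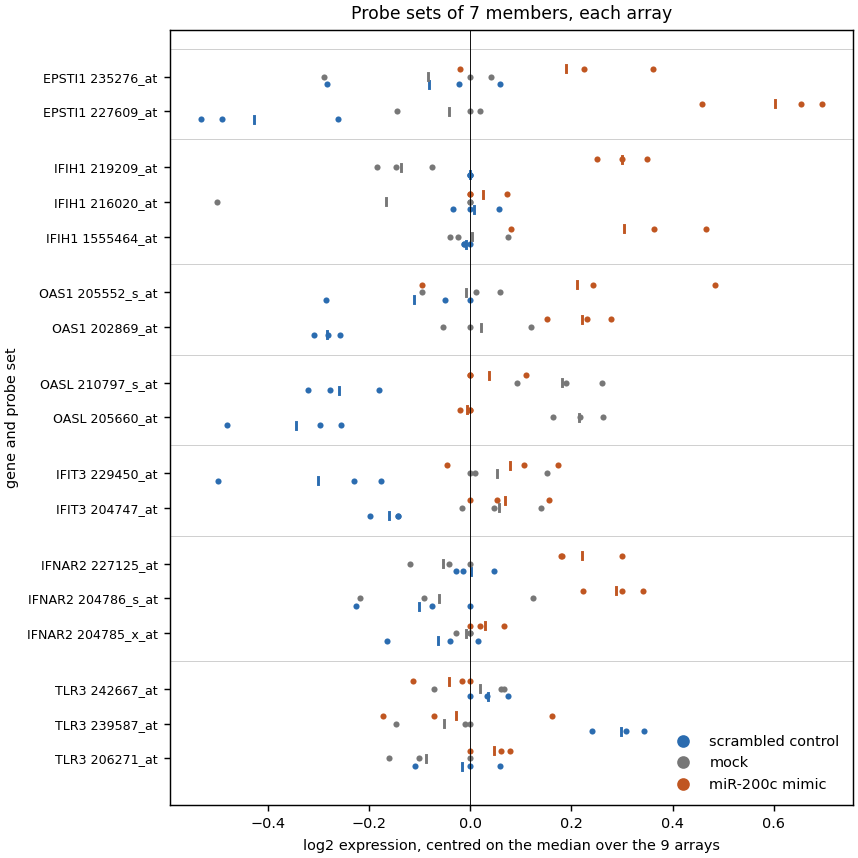
Centred log2 expression of single probe sets of 7 members on each of the 9 arrays; points are arrays, vertical marks are group means. In EPSTI1 227609_at all 3 mimic arrays lie above all others and the scrambled arrays below, and in EPSTI1 235276_at the groups overlap; in TLR3 239587_at the scrambled arrays lie above the rest.

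IFNB1, which encodes interferon beta, stood at 0.00, 0.00 and -0.04 on the mock arrays, 0.09, 0.00 and -0.15 on the scrambled arrays and 0.03, 0.09 and 0.01 on the mimic arrays. The mimic arrays overlapped the scrambled arrays and lay just above the mock arrays. The change against scrambled control was 0.06 with a 95% interval of -0.07 to 0.19. The interferon receptor chain IFNAR2 stood at -0.11, -0.04 and 0.03 on the mock arrays, -0.09, -0.08 and 0.00 on the scrambled arrays and 0.24, 0.16 and 0.14 on the mimic arrays, with the mimic arrays above all 6 others. It rose by 0.23 (SE 0.05, adjusted p = 0.0117) over scrambled control and 0.22 (SE 0.05, adjusted p = 0.0132) over mock, and the last of these was not called without mock replicate 1 (adjusted p = 0.0552). Its probe sets 204786_s_at and 227125_at gave 0.39 and 0.22 against scrambled control, both called, and 204785_x_at gave 0.09, not called.

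The partner chain IFNAR1 stood at -0.12, -0.10 and -0.07 on the mock arrays, -0.01, 0.08 and 0.10 on the scrambled arrays and 0.08, 0.01 and 0.01 on the mimic arrays. Here the mock arrays were the low ones and the mimic and scrambled arrays overlapped. The difference was -0.02 (SE 0.05, adjusted p = 0.813) against scrambled control and 0.13 (SE 0.05, adjusted p = 0.0856) against mock, neither called. The difference from mock passed with the mean of all IFNAR1 probe sets (0.21, adjusted p = 0.00791) and over the genes at 8 or more (adjusted p = 0.0341). The probe sets outside the gene value, 204191_at and 236478_at, gave 0.28 and 0.29 against mock, neither called.

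Among the interferon regulatory factors, IRF9 had the largest difference of all members between mimic and scrambled cells. This DNA-binding subunit of the complex that acts on the ISRE stood at -0.05, 0.00 and 0.00 on the mock arrays, -0.46, -0.59 and -0.79 on the scrambled arrays and 0.56, 0.15 and 0.28 on the mimic arrays. The 3 groups did not overlap in any pair: scrambled was lowest, mock lay in between within 0.05 of 0, and mimic was highest. IRF9 was 1.92-fold higher in mimic than in scrambled cells (0.94, SE 0.10, adjusted p = 0.000128), 1.27-fold higher than in mock (0.34, SE 0.10, adjusted p = 0.0406), and 1.51-fold lower in scrambled than in mock cells (-0.60, SE 0.10, adjusted p = 0.00765). The rise over mock, at a log2 change of 0.23 to 0.44 over the alternatives, did not pass without any 1 of the mock replicates (adjusted p = 0.111, 0.0856 and 0.0869 without replicates 1, 2 and 3) or mimic replicates 1 or 3 (0.112 and 0.0722), nor after quantile normalization (0.266), and both other calls held under every alternative. IRF9 rests on 1 probe set, 203882_at, and in limma's fit on single probe sets its rise over mock was not called (adjusted p = 0.0543). A probe set shared by RNF31 and IRF9, outside the group, had its mimic mean below its mock mean (-0.03 and 0.13).

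IRF3, which is phosphorylated downstream of MAVS and turns on the interferon beta gene, stood at 0.00, 0.03 and 0.01 on the mock arrays, -0.20, -0.25 and -0.14 on the scrambled arrays and 0.04, -0.04 and 0.00 on the mimic arrays. The scrambled arrays were the low ones, and the mock and mimic arrays overlapped near 0. The mimic minus scrambled change of 0.19 (SE 0.04, adjusted p = 0.0139) had a counterpart of -0.21 (SE 0.04, adjusted p = 0.0197) for scrambled minus mock and of -0.01 for mimic minus mock, the last not called. Without scrambled replicate 2 the first was not called (adjusted p = 0.0548), and the second was lost without any 1 of the mock replicates 1, 2 and 3 (0.0546, 0.0719 and 0.052) or scrambled replicates 1 and 2 (0.0541 and 0.0638). IRF1 and IRF7, which also bind interferon response elements, differed by 0.14 and -0.12 against scrambled control and were not called.

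In the oligoadenylate synthetase family, whose active members make the messenger that switches on RNase L, 2 of 4 genes rose over scrambled control and 0 over mock (1 at an unadjusted p under 0.05, limma). OAS1 stood at -0.07, 0.03 and 0.07 on the mock arrays, -0.17, -0.13 and -0.30 on the scrambled arrays and 0.38, 0.03 and 0.24 on the mimic arrays. The scrambled arrays lay below all others, and the mimic and mock arrays overlapped through mimic replicate 2. OAS1 rose by 0.41 (SE 0.08, adjusted p = 0.00681) over scrambled control, and its difference from mock was 0.21 (SE 0.08, adjusted p = 0.117), not called. Without mimic replicate 2 that difference was 0.30 and passed (adjusted p = 0.0198). The probe set 202869_at was called in all 3 comparisons (0.50, 0.20 and -0.30), and 205552_s_at in none (0.32, 0.22 and -0.10).

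OASL, a family member without synthetase activity, had its scrambled arrays below mock. It stood at 0.26, 0.19 and 0.09 on the mock arrays, -0.18, -0.28 and -0.32 on the scrambled arrays and 0.11, 0.00 and 0.00 on the mimic arrays, with the mimic arrays above scrambled and overlapping mock through mimic replicate 1. The changes were 0.30 (SE 0.06, adjusted p = 0.00626) for mimic against scrambled control and -0.44 (SE 0.06, adjusted p = 0.00242) for scrambled control against mock. Both OASL probe sets were called in these comparisons, and in 205660_at the mimic was also lower than mock (-0.22, SE 0.06, adjusted p = 0.0428). OAS2 and OAS3 differed by 0.10 and 0.13 against scrambled control, neither called.

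The IFIT proteins bind foreign RNA and block its translation, and of their 4 genes 1 rose and 1 fell against scrambled control. IFIT3 stood at 0.07, 0.03 and 0.07 on the mock arrays, -0.16, -0.35 and -0.19 on the scrambled arrays and 0.08, -0.02 and 0.17 on the mimic arrays, with the scrambled arrays below all others and the mock and mimic arrays overlapping. It rose by 0.30 (SE 0.06, adjusted p = 0.00742) over scrambled control, was -0.29 (SE 0.06, adjusted p = 0.0215) for scrambled against mock, and differed by 0.02 between mimic and mock. The fall against mock was not called without mock replicates 1, 2 or 3 (adjusted p = 0.0707, 0.0542 and 0.0612) or scrambled replicate 2 (0.0636). Both IFIT3 probe sets were called for mimic against scrambled control. Between the controls 229450_at was called (adjusted p = 0.0483) and 204747_at was not (-0.22, adjusted p = 0.0639).

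IFIT2 ran the other way. It stood at 0.00, -0.01 and 0.10 on the mock arrays, 0.00, 0.18 and 0.24 on the scrambled arrays and -0.21, -0.08 and -0.19 on the mimic arrays, with the mimic arrays below all 6 others. It was the only member called lower in mimic than in scrambled cells, with a change of -0.30 (SE 0.07, adjusted p = 0.0123), and without scrambled replicate 3 its adjusted p was 0.0509. IFIT1 stood at -0.14, 0.00 and -0.02 on the mock arrays, 0.02, 0.19 and 0.02 on the scrambled arrays and 0.07, -0.15 and -0.08 on the mimic arrays, with overlapping mimic and scrambled arrays and a difference of -0.13 (SE 0.07, adjusted p = 0.268). IFIT1 and IFIT3 both carried ISRE cores in their RefSeq windows (2 each). IFIT5 differed by 0.13, not called.

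IFITM1, a membrane protein that blocks entry of enveloped viruses, was 1.85-fold higher in mimic than in scrambled cells. It stood at -0.03, 0.04 and 0.00 on the mock arrays, -0.43, -0.32 and -0.80 on the scrambled arrays and 0.56, 0.07 and 0.50 on the mimic arrays. The scrambled arrays were the low ones, with replicate 3 lowest, and the mimic arrays the high ones, with replicate 2 nearest to mock. The changes were 0.89 (SE 0.14, adjusted p = 0.00119) against scrambled control, 0.37 (SE 0.14, adjusted p = 0.0871) against mock, which was not called, and -0.52 (SE 0.14, adjusted p = 0.0433) for scrambled control against mock. The last was lost without mock replicates 1, 2 or 3 (adjusted p = 0.0989, 0.112 and 0.101) or scrambled replicates 1 or 3 (0.0763 and 0.124), and the mimic minus mock difference passed without mimic replicate 2 (0.52, adjusted p = 0.0156). IFITM1 rests on 1 probe set, and how far that binds transcripts of close paralogs was not tested.

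CMPK2, a mitochondrial nucleotide kinase, and RSAD2, which encodes the antiviral enzyme viperin, start next to each other on opposite strands of chromosome 2 (their nearest RefSeq starts lie 22 bases apart). CMPK2 stood at -0.08, 0.00 and 0.33 on the mock arrays, -0.15, -0.14 and -0.35 on the scrambled arrays and 0.61, 0.47 and 0.16 on the mimic arrays. The mimic arrays all lay above the scrambled arrays and overlapped the mock arrays through mock replicate 3. CMPK2 rose by 0.63 (SE 0.13, adjusted p = 0.00618) over scrambled control, and the difference from mock was 0.33 (SE 0.13, adjusted p = 0.0967), not called; without mock replicate 3 or mimic replicate 3 it passed (adjusted p = 0.0284 and 0.0261).

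RSAD2 stood at 0.16, 0.11 and 0.33 on the mock arrays, -0.13, -0.29 and -0.08 on the scrambled arrays and 0.22, -0.14 and 0.00 on the mimic arrays. Mock was highest and scrambled lowest, and mimic overlapped both. Its 1 call was scrambled control against mock (-0.37, SE 0.09, adjusted p = 0.037), which did not pass with any 1 of these 6 arrays left out (adjusted p = 0.0593 to 0.117). Between the controls the probe set 242625_at was called (-0.43, adjusted p = 0.0466) and 213797_at was not (-0.30, adjusted p = 0.108). Against scrambled control RSAD2 differed by 0.19 (SE 0.09, adjusted p = 0.213).

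ISG20, an exonuclease that degrades RNA, stood at 0.08, 0.06 and 0.13 on the mock arrays, -0.23, -0.24 and -0.15 on the scrambled arrays and 0.19, -0.08 and 0.00 on the mimic arrays, with scrambled below the overlapping mock and mimic arrays. The changes were 0.24 (SE 0.07, adjusted p = 0.0328) against scrambled control and -0.29 (SE 0.07, adjusted p = 0.0231) for scrambled control against mock. The first was lost without scrambled replicates 1 or 2 or mimic replicates 1 or 3 (adjusted p = 0.0966, 0.103, 0.0783 and 0.0599). The second was lost without mock replicates 1, 2 or 3 or scrambled replicates 1 or 2 (0.0671, 0.0567, 0.0717, 0.0699 and 0.0724). The probe set 204698_at was called in both comparisons (0.33 and -0.41), and 33304_at in neither (0.15 and -0.18).

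BST2, or tetherin, which holds budding virus at the cell surface, rose by 0.22 over scrambled control (SE 0.06, adjusted p = 0.027). This call was lost without any 1 scrambled replicate (adjusted p = 0.0832, 0.0585 and 0.0723) or mimic replicate 1 (0.0729). The difference of BST2 from mock was 0.10 (adjusted p = 0.273), not called. MX1, the dynamin-like GTPase often used as a marker of the interferon response, stood at 0.00, 0.11 and 0.00 on the mock arrays, 0.00, -0.04 and 0.00 on the scrambled arrays and -0.01, 0.00 and 0.01 on the mimic arrays, which is within 0.11 of 0 on every array. Its difference from scrambled control was 0.01 (SE 0.05, adjusted p = 0.882) with a 95% interval of -0.09 to 0.11. The 1 probe set of MX1 lay in the class from 4 to 8 and held 4 values of exactly 0. Whether its signal stood above background is not known. MX2, SAMD9 and SAMD9L differed by -0.02, 0.08 and 0.17 against scrambled control and were not called.

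The ISG15 pathway attaches a ubiquitin-like protein, ISG15, to others through the conjugating enzyme UBE2L6 and the ligase HERC5, and USP18 removes it. HERC5 stood at 0.00, -0.05 and 0.02 on the mock arrays, -0.13, -0.32 and -0.25 on the scrambled arrays and 0.22, 0.22 and 0.27 on the mimic arrays, with no overlap between any pair of groups. It rose by 0.47 (SE 0.05, adjusted p = 0.000162) over scrambled control and by 0.25 (SE 0.05, adjusted p = 0.00878) over mock, and scrambled control lay below mock, with a change of -0.22 (SE 0.05, adjusted p = 0.0301). The last was lost without mock replicates 1, 2 or 3 (adjusted p = 0.0888, 0.0626 and 0.0873) or scrambled replicates 2 or 3 (0.0928 and 0.0926), and both rises held under every alternative.

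ISG15 itself stood at 0.08, 0.01 and 0.00 on the mock arrays, -0.18, -0.13 and -0.33 on the scrambled arrays and 0.25, -0.07 and 0.15 on the mimic arrays. Scrambled arrays lay below all others, and mimic overlapped mock through replicate 2. The change against scrambled control was 0.32 (SE 0.08, adjusted p = 0.0194), lost without scrambled replicate 3, mimic replicate 1 or mimic replicate 3 (adjusted p = 0.0767, 0.0681 and 0.0651), and against mock it was 0.08, not called. Scrambled control was -0.25 against mock, not called, and passed after quantile normalization (adjusted p = 0.0465) and over the genes at 8 or more (0.0408). UBE2L6 was the 1 member called against mock and not against scrambled control (0.20, SE 0.05, adjusted p = 0.0241, and 0.12), a call lost without mock replicates 2 or 3 or mimic replicates 1 or 3 (adjusted p = 0.0811, 0.0739, 0.0724 and 0.0555). USP18 differed by 0.02, and the relatives HERC6, TRIM21, TRIM22 and TRIM25, which are ubiquitin ligases or related to them, by 0.12, 0.00, -0.02 and 0.02, none called.

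DTX3L, a ubiquitin ligase that pairs with the ADP-ribosyltransferase PARP9, had the smallest p of all members. It stood at -0.02, 0.00 and 0.01 on the mock arrays, -0.27, -0.34 and -0.39 on the scrambled arrays and 0.18, 0.12 and 0.18 on the mimic arrays, in 3 groups that did not overlap. It rose by 0.50 (SE 0.05, adjusted p = 3.94e-05) over scrambled control, by 0.16 (SE 0.05, adjusted p = 0.0297) over mock, and lay lower in scrambled than in mock cells, with a change of -0.33 (SE 0.05, adjusted p = 0.00262). The rise over mock was lost without mock replicates 1, 2 or 3 (adjusted p = 0.0877, 0.0829 and 0.0602) or mimic replicates 1 or 3 (0.0697 and 0.0939), and after quantile normalization (0.0889).

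PARP9 starts next to DTX3L on the opposite strand of chromosome 3 (their nearest RefSeq starts lie 38 bases apart), and both windows held an ISRE core. PARP9 differed by 0.13 (SE 0.06, adjusted p = 0.235) against scrambled control, not called. The difference between both genes was not tested. PARP12 and PARP14, further ADP-ribosyltransferases, differed by 0.22 and 0.07, neither called.

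EPSTI1, an interferon-induced protein first described in epithelial cells exposed to stroma, rose against both controls. It stood at -0.07, 0.02 and -0.13 on the mock arrays, -0.27, -0.22 and -0.28 on the scrambled arrays and 0.51, 0.22 and 0.46 on the mimic arrays. The mimic arrays lay above all 6 others. It was 1.57-fold higher than in scrambled cells (0.65, SE 0.07, adjusted p = 0.00015) and 1.37-fold higher than in mock cells (0.46, SE 0.07, adjusted p = 0.00144), and both calls held under every alternative. Scrambled control and mock differed by -0.19 (SE 0.07, adjusted p = 0.137).

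The EPSTI1 value is the mean of 2 probe sets that disagreed in size. In 227609_at the mimic arrays stood at 0.65, 0.46 and 0.69, the scrambled arrays at -0.26, -0.49 and -0.53 and the mock arrays at -0.15, 0.00 and 0.02. That probe set differed by 1.03 (SE 0.09, adjusted p = 3.88e-05) against scrambled control, 0.64 (SE 0.09, adjusted p = 0.000763) against mock and -0.39 (SE 0.09, adjusted p = 0.0315) between the controls. In 235276_at the groups overlapped and the changes were 0.27, 0.27 and 0.00, none called.

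IFI6, a small membrane protein with antiviral activity, stood at 0.07, 0.04 and 0.00 on the mock arrays, -0.16, -0.51 and -0.40 on the scrambled arrays and 0.68, -0.09 and 0.27 on the mimic arrays. All mimic arrays lay above all scrambled arrays, but mimic replicates ranged from below mock (replicate 2) to the highest value of the gene (replicate 1). The change against scrambled control was 0.64 (SE 0.16, adjusted p = 0.0174), with the largest standard error of any called member. This call was lost without scrambled replicates 2 or 3 (adjusted p = 0.072 and 0.0581). The mimic differed from mock by 0.25 (adjusted p = 0.313) and the scrambled control from mock by -0.39 (adjusted p = 0.153), neither called. Without mimic replicate 2 the first of these passed (0.44, adjusted p = 0.0417). IFI35 rose by 0.27 over scrambled control (SE 0.07, adjusted p = 0.027), lost without scrambled replicates 2 or 3 or mimic replicate 1 (0.0726, 0.0922 and 0.0561). Its difference from mock was 0.12 (adjusted p = 0.305), not called.

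PSMB8, a catalytic subunit of the immunoproteasome, rose by 0.16 over scrambled control (SE 0.04, adjusted p = 0.0349). This call was lost without scrambled replicates 1 or 3 (adjusted p = 0.112 and 0.0976) or any 1 mimic replicate (0.0817, 0.0608 and 0.0876). The difference of PSMB8 from mock was 0.10 (adjusted p = 0.156), not called. PSMB9, a further catalytic subunit, and TAP1, the peptide transporter encoded beside it, lay below 0 against scrambled control (-0.15 and -0.13) and were not called.

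**Figure D4:**
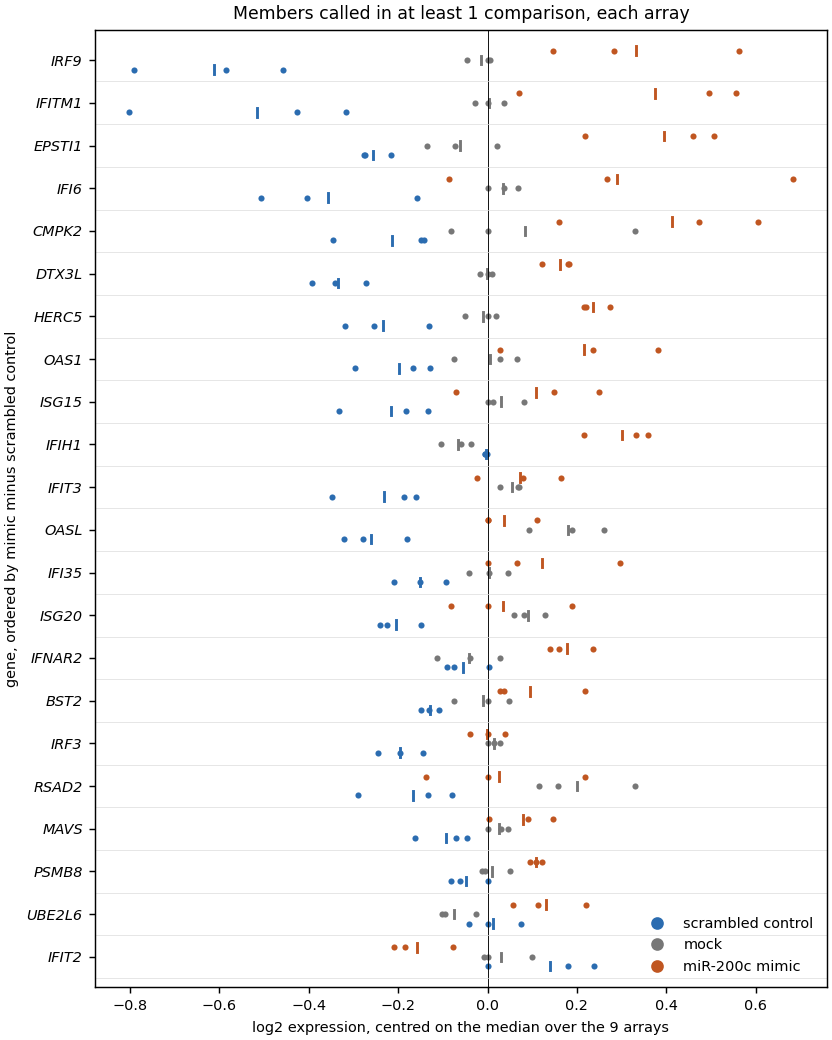
Centred log2 expression of the 22 members called in at least 1 comparison, on each of the 9 arrays; points are arrays and vertical marks are group means. IRF9, IFITM1, DTX3L and OASL are among the genes in which the scrambled arrays lie left of the mock arrays. The mimic arrays lie right of all others in IRF9, IFITM1, EPSTI1, IFIH1, IFNAR2, HERC5, DTX3L and PSMB8.

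In all, 33 members were called in no comparison. Their changes ran from -0.15 (PSMB9) to 0.28 (IFI44L) for mimic minus scrambled control, from -0.11 (LGALS3BP) to 0.26 (SAMD9) for mimic minus mock, and from -0.38 (IFI44L) to 0.22 (XAF1) for scrambled control minus mock. IFI44L had non-overlapping scrambled and mock arrays and an adjusted p of 0.0546 in the last. Its standard error was 0.11, against a median of 0.06 over the members, with an interval of -0.61 to -0.14 for this difference. IFI27, IFI44, SP100 and PML, also induced by interferon, differed by 0.06, 0.10, 0.01 and 0.03 against scrambled control. Besides those of TLR3 and EIF2AK2, some single probe sets of these 33 members were called by limma. IFI44 214059_at rose over scrambled control (0.23, adjusted p = 0.0425). Against mock, SP100 202863_at and 210219_at, OAS2 228607_at and SAMD9 228531_at rose (0.20, 0.24, 0.34 and 0.325).

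The members were also counted by signal level and by promoter letters, beside all measured genes of the same kind. Of the 32 members at 8 or more, 13 rose and 1 fell against scrambled control, with a median change of 0.15; of all genes in that class 10.9% rose and 11.4% fell. Of the 22 members from 4 to 8, 6 rose, with a median of 0.11, where 5.62% of all genes of the class rose. Of the 28 members with an ISRE core in the RefSeq window, 11 rose over scrambled control and 6 lay lower in scrambled control than in mock, against 10.4% and 5.22% of the 613 measured genes with it. Of the 16 matched members without the core the counts were 5 and 1, against 7.64% and 5.4% of all matched genes without it. The median changes of these sets of members were 0.15 and 0.13 for mimic minus scrambled control, and -0.13 and -0.04 for scrambled control minus mock. For the GAS, 7 of 14 members with it and 9 of 30 without it rose over scrambled control, against 7.61% and 7.76% of all such genes. Differences between these classes of members were not tested.

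Other genes of the pathway, outside the 55, were counted in the same way. Of 38 listed genes of interferon signalling and RNA sensing 34 were measured; 3 rose over scrambled control (STAT3, IL10RB and RIGI) and 2 fell (TBK1 and PRKRA), with a median change of -0.01. These counts lie near the background, since 7.55% of all genes rose and 6.95% fell. STAT3, a signal transducer shared by many cytokines, differed by 0.36 (SE 0.06, adjusted p = 0.00132), and the interleukin receptor chain IL10RB by 0.33 (SE 0.06, adjusted p = 0.00522). RIGI, the cytosolic helicase for RNA with triphosphate ends, rose by 0.19 (SE 0.05, adjusted p = 0.0262). STAT3 and RIGI were lower in scrambled control than in mock (-0.41, adjusted p = 0.00251, and -0.22, adjusted p = 0.0248), and differed by -0.05 and -0.03 between mimic and mock, not called. IL10RB differed by -0.23 between the controls (adjusted p = 0.051) and by 0.10 between mimic and mock, neither called. The kinase TBK1, which phosphorylates IRF3, fell (-0.26, SE 0.06, adjusted p = 0.0137), as did PRKRA, a protein activator of EIF2AK2 (-0.28, SE 0.05, adjusted p = 0.00516), and both were also lower than mock (-0.21 and -0.19). Against mock 0 rose (2 at an unadjusted p under 0.05, limma) and 4 fell, and between the controls 0 rose (4 at an unadjusted p) and 3 fell; of all genes 10.2% fell against mock and 5.15% between the controls.

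Of 37 further interferon-stimulated genes 33 were measured; 11 rose over scrambled control and 1 fell, with a median of 0.08, where 7.55% of all genes rose and 6.95% fell. The guanylate-binding proteins, GTPases that act against intracellular pathogens, were among them. GBP3 stood at -0.39, -0.35 and -0.19 on the mock arrays, -0.03, 0.00 and 0.12 on the scrambled arrays and 0.51, 0.42 and 0.50 on the mimic arrays, with the mimic arrays above all others and the mock arrays lowest. It rose by 0.45 (SE 0.06, adjusted p = 0.000665) over scrambled control and by 0.79 (SE 0.06, adjusted p = 1.55e-05) over mock. GBP1 rose by 0.36 and 0.53, and GBP2 by 0.30 over scrambled control. RTP4, a chaperone of membrane receptors, rose by 0.49 and 0.52 over the 2 controls, and BATF2, a leucine zipper factor, fell (-0.35 and -0.43). Against mock 5 genes of this list rose and 3 fell, where 8.32% of all genes rose and 10.2% fell. Between the controls 2 rose and 2 fell, where 2.65% and 5.15% of all genes did. This list, too, was chosen with earlier results of these data known, so its counts are no independent test.

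Of 20 genes of antigen presentation 18 were measured; 0 rose over scrambled control (3 at an unadjusted p under 0.05, limma) and 1 fell, TAP2, the partner chain of TAP1 (-0.50, SE 0.06, adjusted p = 0.000248). Against mock 1 rose and 4 fell, and between the controls 0 rose (1 at an unadjusted p) and 2 fell. The shares of all genes given for the other lists are the background here too. The lists leave out genes that are not analysed here.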

How the data were processed

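Total RNA of the 9 samples was hybridised to arrays of 1 colour. The deposited values are log2 expression of 54675 probe sets, centred on each probe set's median. The probe summary method and its normalization are steps not given in the sources used here. The log base is taken from the size of the values. Gene symbols come from the platform's annotation. From the table, 62 control probe sets were left out and 41091 with 1 symbol kept; 41037 identifiers were found in RefSeq (GRCh38.p14). A gene's value is the mean of its probe sets in its highest level class. Group means were fitted on all 9 arrays for 19775 genes with lmFit and eBayes of limma 3.58.1 (R 4.3.3; two-sided tests), and a call is a Benjamini-Hochberg adjusted p under 0.05 over all genes. Scripts were tested on simulated data. The members and lists were chosen with earlier results of these data known. Array values are named for the 12 members with the largest change against scrambled control, for members called lower, and for 11 sensors, receptors and effectors named whatever their change. Genes of other lists are up to 4 with the smallest p; RIGI, BATF2, CD3E, ITGAM, LAPTM5 and the called epithelial markers were named after their values were seen. Arrays of the same replicate number shared little of their deviations from the group means (correlations -0.16 to 0.12). Whether the replicates were run in parallel sets is not given in the labels. Alternatives were quantile normalization, level filters, probe set rules, ties left out, robust eBayes, fewer arrays and a replicate block.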

Additional observations from a re-analysis of the deposited data

How the results depend on the processing

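No alternative turned the direction of a called change. Of the calls, 11 of 20 held under every alternative for mimic minus scrambled control, 3 of 7 for mimic minus mock (EPSTI1, HERC5 and IFIH1) and 3 of 9 for scrambled control minus mock (DTX3L, IRF9 and OASL). Members lower in mimic than in scrambled cells were 2 at level 8 or more and 2 by probe sets, and 0 to 1 with 1 array left out. Members higher than mock were 4 to 11 with 1 array left out, and members lower than mock were 1 with the mean of all probe sets, 1 at level 8 or more and 2 by probe sets. Between the controls, members higher were 1 after quantile normalization, at level 4 or more, at level 8 or more, with the replicate block, without ties and by probe sets (TLR3, or IFNAR1 at level 8 or more), and members lower were 3 to 6 with 1 array left out. Quantile normalization left 9 probe sets called against mock in place of 14, and 19 between the controls in place of 12. With the replicate number as a block, 17 members rose and 1 fell against scrambled control, 6 rose against mock, and 1 rose and 10 fell between the controls. The block lost MAVS and PSMB8 against scrambled control (adjusted p = 0.056 and 0.0719), DTX3L against mock (0.0563) and IFITM1 between the controls (0.0663). Fits on 2 groups alone did not call MAVS, ISG20, IFI35 and PSMB8 against scrambled control (adjusted p = 0.092, 0.0693, 0.0587 and 0.0656) or HERC5 between the controls (0.052), and added ISG15 and IFI6 as lower in scrambled control than in mock (0.0466 and 0.0313). With 3 arrays a group and a median standard error of 0.06, small changes could be missed, and the smallest size that would be called was not measured. The counts under the alternatives, and those with arrays left out, stand without the share of all genes or probe sets called in the same fit. A shift in such a count is therefore not a result about the members. The cause of each shift was not tested.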

Other observations

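Probe sets that carry 2 symbols stood outside the group. One shared by IFITM2 and IFITM1 had group means of 0.01 ± 0.02 in mock, -0.29 ± 0.12 in scrambled and 0.26 ± 0.24 in mimic cells (SD, n = 3), with the mimic arrays above all others. One shared by RNF31 and IRF9 had means of 0.13 ± 0.10, -0.11 ± 0.15 and -0.03 ± 0.15, with mimic and scrambled arrays overlapping.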
